A study of Homo sapiens with 6 samples.

Results

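Endothelial cells line the inside of blood vessels and are held together by junction proteins that also decide what crosses the vessel wall. The group described here holds 10 genes of these junctions and of the vessel surface: CDH5, PECAM1, ESAM, CLDN5, JAM2, JAM3, MMRN2, EMCN, ICAM2 and ROBO4. They were chosen by name, and every probe set that the platform annotation assigns to 1 of them alone was used. This gave 23 of 54613 probe sets and 10 of 19775 genes. ERG, a transcription factor of the ETS family, is known in endothelial cells as an activator of CDH5, CLDN5 and ICAM2. The group sets these genes beside other junction and vessel genes, in leukemia cultures labelled as ERG-induced. Several members, among them PECAM1, ESAM, JAM3 and ICAM2, are also found on platelets or on white blood cells.

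RNA came from K562, an erythroleukemia line derived from chronic myeloid leukemia, carrying a doxycycline (DOX) responsive pTRE-ERG construct in 3 stable clones, CL4, CL9 and CL46. Of each clone, 1 culture received 1 µg/ml DOX for 8 days by the sample labels (labelled ERG-induced) and 1 received none (labelled non-induced), giving 3 Affymetrix U133 Plus 2.0 arrays per group. The methods of the study also give 8 days, but a figure legend gives 6 days of DOX for these clones. Each clone is a separate line and carries 1 array per condition. The errors below rest on the spread between clones within each label, which limma moderated with the variances of all genes or probe sets. All induced cultures and no others received DOX, and effects of DOX and of ERG cannot be told apart. ERG itself had a log2 difference of -0.76 (limma, SE 0.63, adjusted p = 0.671) over its 4 probe sets, whose position relative to the introduced sequence is not known, and the arrays are therefore named by their labels. The deposited values are ratios to the median of the same probe set across the 6 arrays. A value of 1 is the middle of the 6 arrays in 50737 probe sets, and in 3938 the middle lies below 1. Brightness is not part of the values, and neither the levels of different genes nor the labelled cell type could be checked with them. Control probe sets for 18S ribosomal RNA, a sign of RNA quality, were higher by 1.21, 0.59 and 0.82 on the log2 scale under the ERG-induced label of CL4, CL9 and CL46. The 3' minus 5' difference of control probe sets, another sign of RNA quality, changed by -0.15, 0.59 and 0.24 for ACTB in the same clones. For GAPDH it changed by 0.008, 0.061 and -0.007. The part of RNA quality in the results below was not tested.

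VE-cadherin, the product of CDH5, joins endothelial cells at adherens junctions by binding itself on the neighbouring cell. PECAM1, ESAM, JAM2 and JAM3 are immunoglobulin-like proteins of the cell border, and CLDN5 seals the tight junctions of the vessel wall. ICAM2 binds leukocyte integrins, EMCN (endomucin) is a sialomucin of the vessel lumen, MMRN2 (multimerin 2) is a glycoprotein of the endothelial matrix, and ROBO4 is a receptor of the roundabout family that stabilizes vessels. ETS factors bind DNA at a GGAA core, and the stretches before the start sites of 3 members, found in RefSeq by gene ID, are shown for this reason. Each is 250 bases long, ends just before the start site, and is written on the strand of the gene, with GGAA and its reverse complement TTCC in capitals. MMRN2 (GRCh38.p14, chr10:86957616-86957865, minus strand), EMCN (chr4:100518023-100518272, minus strand) and ROBO4 (chr11:124897866-124898115, minus strand) read:
MMRN2: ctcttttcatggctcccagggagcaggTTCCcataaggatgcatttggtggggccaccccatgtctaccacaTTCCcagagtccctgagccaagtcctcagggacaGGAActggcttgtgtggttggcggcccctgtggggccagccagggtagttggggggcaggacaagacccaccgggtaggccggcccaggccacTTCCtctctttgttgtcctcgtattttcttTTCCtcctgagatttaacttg
EMCN: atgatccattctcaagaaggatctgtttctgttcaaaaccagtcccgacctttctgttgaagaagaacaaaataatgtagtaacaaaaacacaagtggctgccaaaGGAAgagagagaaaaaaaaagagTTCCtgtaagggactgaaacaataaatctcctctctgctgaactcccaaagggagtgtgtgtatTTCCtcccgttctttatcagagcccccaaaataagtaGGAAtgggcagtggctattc
ROBO4: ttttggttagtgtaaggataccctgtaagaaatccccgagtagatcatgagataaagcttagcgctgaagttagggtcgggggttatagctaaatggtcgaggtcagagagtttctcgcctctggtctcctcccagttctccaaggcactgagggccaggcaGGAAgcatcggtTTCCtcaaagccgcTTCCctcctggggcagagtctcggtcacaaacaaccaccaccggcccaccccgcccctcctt

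The core occurred 5 times in the MMRN2 stretch, 4 times in that of EMCN and 3 times in that of ROBO4, counting both strands. Among 35116 RefSeq stretches of the same length, 92.7% held at least 1 core, the median was 3, and 34.3% held 4 or more. The longer forms AGGAAG and CGGAAG, which contain the core, were searched on both strands as well. AGGAAG or its reverse complement occurred once in each of the 3 stretches (28.7% of all stretches held it), and CGGAAG in none of them (16.5% of all). These matches describe the letters and do not show a binding site.

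Of the 10 genes, 4 were higher under the ERG-induced label and 0 were lower, in the mean over the probe sets of each gene. The 4 were CDH5, PECAM1, ESAM and MMRN2. Here and below, a gene is called, or said to rise or fall, when limma gave it at least a 2-fold difference and a two-sided p below 0.05 without adjustment, the cutoffs of the study. By the same rule 40.0% of the members and 3.12% of all genes were higher, 6.32% of all genes were lower, and 9.44% were either. The members were selected with earlier results of these arrays known, and PECAM1 is named by the study from them, so that this share is a description. No member passed an adjusted p of 0.05 in limma (0 of 10, lowest adjusted p = 0.192, 4 with an unadjusted p under 0.05), nor did any gene on the arrays. The values of both labels did not overlap in 5 members that were higher and 0 that were lower (7.98% and 13.6% of all genes). The median log2 difference of the members was 0.37, against -0.03 over all genes. By clone, 6, 7 and 8 of the 10 members were above 0 in CL4, CL9 and CL46, with medians of 0.65, 1.01 and 0.39.

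**Figure D1:**
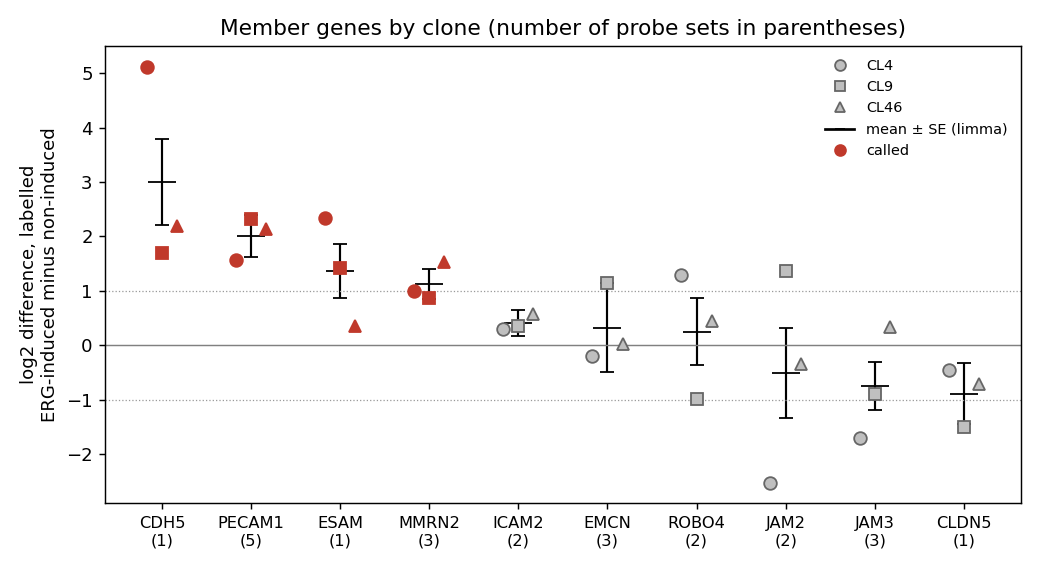
Log2 difference (ERG-induced minus non-induced label) of the 10 member genes in each clone, as the mean over the probe sets of a gene; symbols are the clones, black lines the fitted mean ± SE from limma, dotted lines a fold of 2, and red marks a called gene. CDH5, PECAM1, ESAM, MMRN2 and ICAM2, the last not called, lie above 0 in all 3 clones. CLDN5 lies below 0 in all 3, and JAM2, JAM3, EMCN and ROBO4 lie on both sides.

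Across single probe sets, 9 of 23 were higher and 1 was lower at the same thresholds, where 2.82% of all probe sets were higher and 8.16% lower. The lowest adjusted p of the 23 was 0.159, and 10 had an unadjusted p under 0.05. The values of the groups did not overlap in 10 probe sets that were higher and 2 that were lower under the ERG-induced label (7.14% and 15.1% of all probe sets). Probe sets of the same gene often disagreed, and a gene mean then hides opposite values, as in JAM3 and EMCN below. The smallest two-sided p that an exact permutation test of 3 arrays against 3 can give is 0.1.

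**Figure D2:**
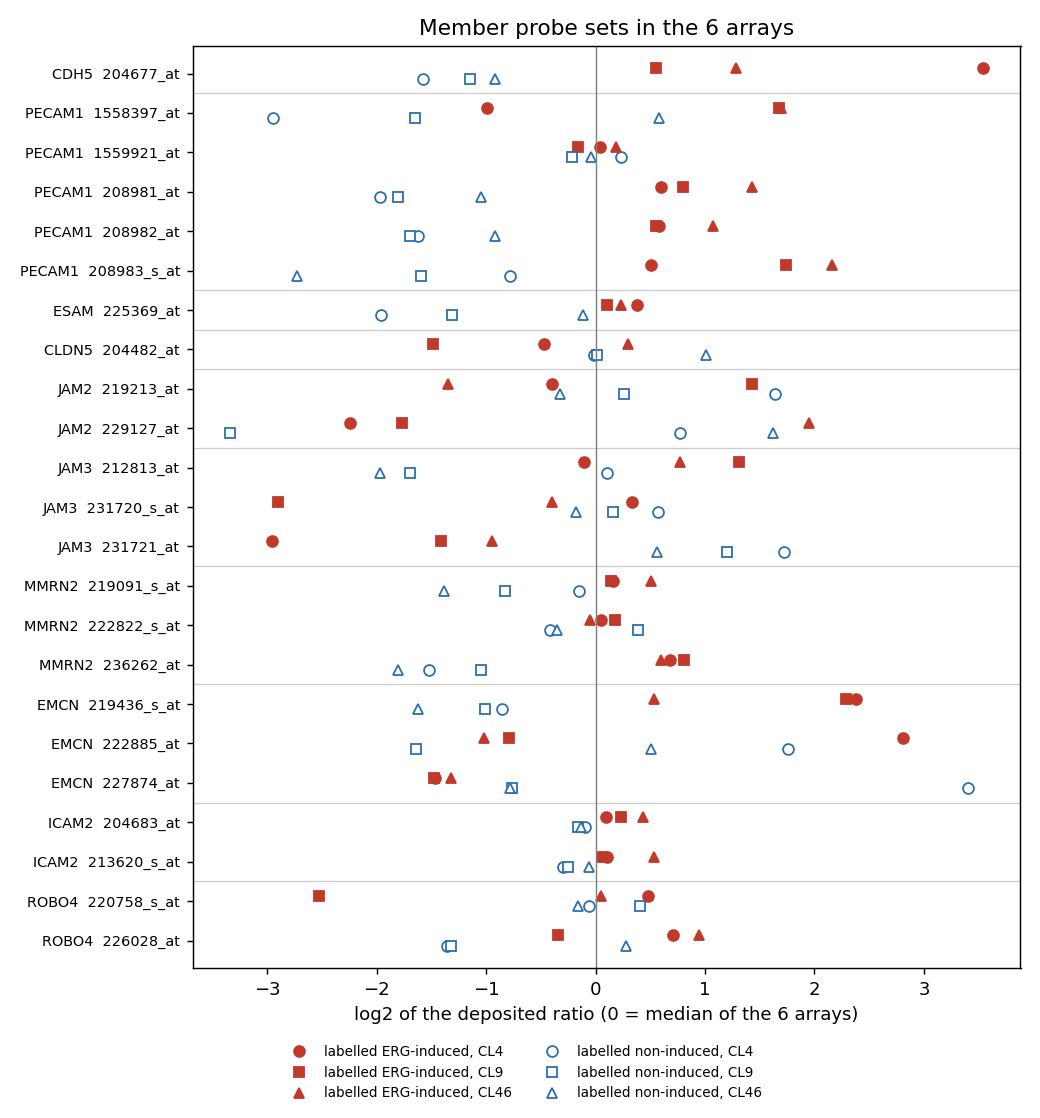
Log2 of the deposited ratio of the 23 member probe sets in each of the 6 arrays. A value of 0 is the median of the 6 arrays, except in EMCN 227874_at, whose median ratio was 0.49. Filled red symbols are arrays labelled ERG-induced, open blue symbols arrays labelled non-induced, and the shape gives the clone. The 2 groups stand apart in CDH5, in PECAM1 208981_at and 208982_at, in MMRN2 236262_at and in EMCN 219436_s_at, and they overlap in both probe sets of JAM2.

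CDH5, on chromosome 16, had the largest log2 difference of the 10 genes. Here and in the paragraphs on the other members, 3 values in a row belong to CL4, CL9 and CL46, in that order. Its ratio was 11.6, 1.47 and 2.43 under the ERG-induced label of CL4, CL9 and CL46, against 0.335, 0.452 and 0.531 under the non-induced label. All 3 induced values lay above all 3 others, and CL4 stood far above the other clones. The mean difference was 3.01 (SE 0.79, 8.03-fold higher, adjusted p = 0.255), with 5.12 in CL4, 1.70 in CL9 and 2.20 in CL46. Without CL4 it was 1.95. CDH5 was measured by 1 probe set, so that no second probe set checks it. When it was fitted among all probe sets, it missed the p cutoff without CL46 (3.41).

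PECAM1, on chromosome 17, had the smallest p of the 10 genes, with 3 of 5 probe sets higher. The protein, CD31, binds itself between cells and signals through phosphatases on its cytoplasmic tail. Probe set 208981_at had ratios of 1.51, 1.74 and 2.69 under the ERG-induced label, against 0.255, 0.287 and 0.485 under the non-induced label (CL4, CL9, CL46). Its clone differences of 2.57, 2.60 and 2.47 had an SD of 0.07. Probe set 208982_at had 1.49, 1.47 and 2.10, against 0.325, 0.309 and 0.531. Both gave nearly the same change in every clone, with mean log2 differences of 2.55 (SE 0.40, adjusted p = 0.163) and 2.15 (SE 0.35, adjusted p = 0.168).

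The third PECAM1 probe set called, 208983_s_at, had ratios of 1.42, 3.34 and 4.47 under the ERG-induced label and 0.581, 0.331 and 0.151 under the non-induced label. It differed by 3.17 (SE 0.68, adjusted p = 0.194), but its clones spread widely, at 1.29, 3.33 and 4.88. Probe set 1558397_at gave 0.502, 3.20 and 3.23 against 0.13, 0.318 and 1.5 and was not called (2.13, SE 1.17). Here the groups overlapped, yet each clone was higher, and it passed in the fit with clone as a block (adjusted p = 0.36). The remaining probe set, 1559921_at, gave 1.03, 0.895 and 1.14 against 1.18, 0.862 and 0.969, a log2 difference of 0.03 (SE 0.28). Averaged over the 5, PECAM1 was 4.01-fold higher (2.0, SE 0.39, adjusted p = 0.192), with 1.56 in CL4, 2.31 in CL9 and 2.13 in CL46.

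Genes whose 3 clone differences lay closest to those of PECAM1, by root mean square distance over the 3 clones, were HPSE (0.11), DUSP5 (0.19) and FAM151A (0.25). HPSE encodes heparanase, which cleaves heparan sulfate of the matrix, and DUSP5 encodes a phosphatase that inactivates ERK. HPSE differed by 1.39 in CL4, 2.40 in CL9 and 2.15 in CL46. For CDH5 the closest were SPAG17 (0.49), TYROBP (0.52), an adaptor of myeloid receptors, and MMP21 (0.61).

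ESAM, an adhesion molecule of endothelial tight junctions and of platelets, lies on chromosome 11. Its single probe set had ratios of 1.30, 1.08 and 1.18 under the ERG-induced label, against 0.257, 0.404 and 0.924 under the non-induced label. The induced values were close to each other, and the spread came from the non-induced arrays. ESAM was 2.58-fold higher (log2 difference 1.37, SE 0.50, adjusted p = 0.349), with 2.34 in CL4, 1.41 in CL9 and 0.35 in CL46. ESAM was no longer called without CL4 (0.88), without CL9 (1.35) and in the fit with clone as a block (adjusted p = 0.389).

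MMRN2, on chromosome 10, rose in 2 of 3 probe sets. Probe set 236262_at, which had the smallest p of the 23, gave ratios of 1.61, 1.75 and 1.52 under the ERG-induced label and 0.349, 0.483 and 0.287 under the non-induced label. The groups were widely separated, and the log2 difference was 2.15 (SE 0.31, adjusted p = 0.159), with 2.20 in CL4, 1.86 in CL9 and 2.40 in CL46. Probe set 219091_s_at gave 1.11, 1.10 and 1.42 against 0.898, 0.565 and 0.383 (1.06, SE 0.40, adjusted p = 0.353). Its groups lay just apart, and its call was lost without CL9 (1.10), without CL46 (0.64) and in the fit with clone as a block (adjusted p = 0.434). The third, 222822_s_at, differed by 0.19 (SE 0.33). In the mean of the 3, MMRN2 was 2.19-fold higher (1.13, SE 0.27, adjusted p = 0.235), and without CL46 it lost its call (0.93).

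**Figure D3:**
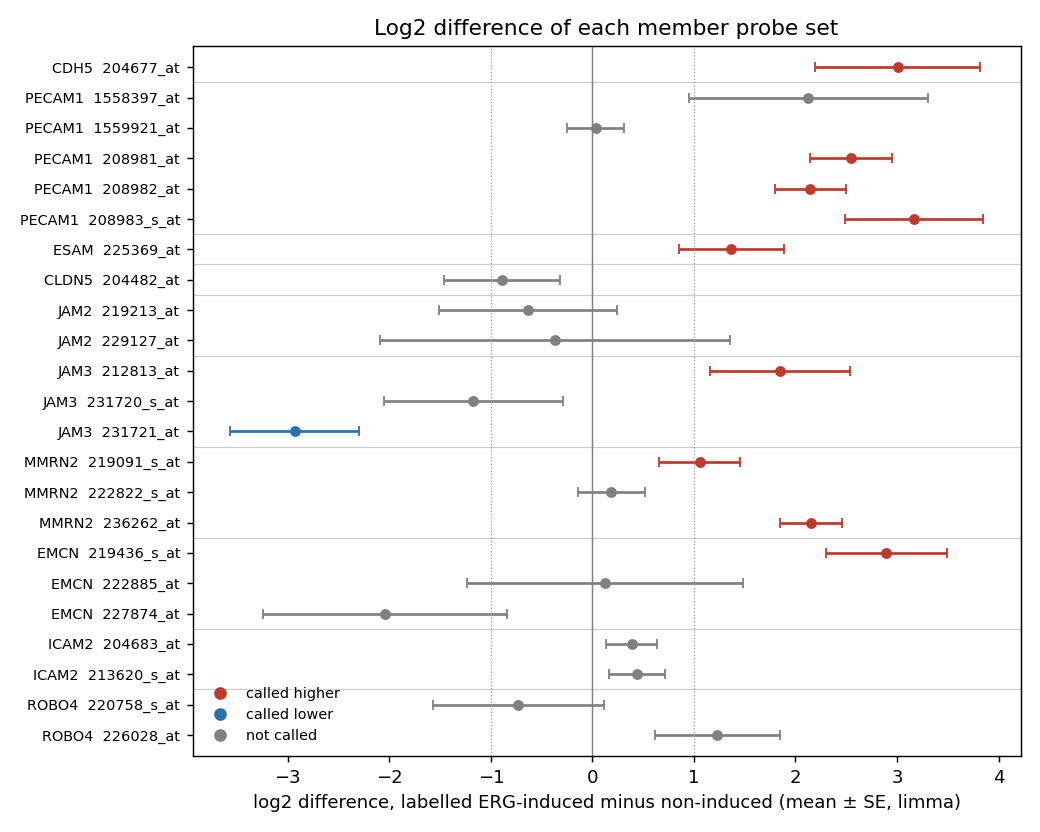
Log2 difference (ERG-induced minus non-induced label) of each of the 23 member probe sets as mean ± SE of the limma fit over all probe sets, with dotted lines at a fold of 2. Red points are called higher and blue lower; JAM3 holds 212813_at at 1.85 and 231721_at at -2.93, and EMCN holds 219436_s_at at 2.89 and 227874_at at -2.04.

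EMCN, on chromosome 4, was split between its 3 probe sets. Probe set 219436_s_at had ratios of 5.20, 4.87 and 1.45 under the ERG-induced label, against 0.553, 0.496 and 0.325 under the non-induced label. All induced values lay above the others, and it was 7.43-fold higher (log2 difference 2.89, SE 0.59, adjusted p = 0.191). Its clones gave 3.23, 3.30 and 2.15. Probe set 222885_at had 6.99, 0.579 and 0.493 against 3.37, 0.320 and 1.42 and was high in both arrays of CL4 (0.13, SE 1.36). Probe set 227874_at had 0.362, 0.359 and 0.401 against 10.6, 0.590 and 0.583, a difference of -2.04 (SE 1.2, adjusted p = 0.545) that rested largely on the non-induced array of CL4. Without CL4 it was -0.63. The mean of the 3 was 0.33 (SE 0.82, adjusted p = 0.909), and EMCN was not called as a gene. Without 227874_at, whose median ratio was below 1, the mean was 1.51 and was not called either.

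JAM3, on chromosome 11, encodes a junctional adhesion molecule that platelets and endothelial cells share, and it was measured by 3 probe sets. Its probe set 231721_at was the only member probe set that fell, with ratios of 0.129, 0.376 and 0.520 under the ERG-induced label and 3.31, 2.30 and 1.48 under the non-induced label. The groups did not overlap, and its ratio fell 7.64-fold (-2.93 on the log2 scale, SE 0.63, adjusted p = 0.195). Probe set 212813_at went the other way, with 0.928, 2.48 and 1.71 against 1.07, 0.309 and 0.256, and was called higher (1.85, SE 0.69, adjusted p = 0.352). Its CL4 arrays did not share the rise (-0.21 in CL4, 3.0 in CL9 and 2.74 in CL46). That call was lost without CL9 (1.27), without CL46 (1.40) and in the fit with clone as a block (adjusted p = 0.456). The third probe set, 231720_s_at, gave 1.26, 0.134 and 0.759 against 1.49, 1.11 and 0.885, low only in the induced array of CL9 (-1.17, SE 0.88). The mean of the 3 was -0.75 (SE 0.44, adjusted p = 0.544), and the clones went both ways, at -1.71, -0.89 and 0.34. It was -0.28 without CL4 and -1.30 without CL46. The files do not say which transcripts or exons these probe sets read.

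JAM2, its relative on chromosome 21, showed no common direction. Probe set 219213_at had ratios of 0.760, 2.69 and 0.393 under the ERG-induced label and 3.12, 1.2 and 0.799 under the non-induced label. Probe set 229127_at had 0.211, 0.294 and 3.86 against 1.71, 0.0991 and 3.07, and was high in both arrays of CL46. The groups overlapped in both, and the mean log2 difference was -0.50 (SE 0.83, adjusted p = 0.852), with -2.53 in CL4, 1.36 in CL9 and -0.35 in CL46. It was 0.51 without CL4, so that its sign rested on that clone.

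CLDN5, on chromosome 22, had ratios of 0.721, 0.357 and 1.23 under the ERG-induced label, against 0.993, 1.01 and 2.01 under the non-induced label. Each clone was lower (log2 differences of -0.46 in CL4, -1.5 in CL9 and -0.71 in CL46), but the groups overlapped because both arrays of CL46 were high. The mean was -0.89 (SE 0.55, adjusted p = 0.567), or adjusted p = 0.394 in the fit with clone as a block, and CLDN5 was not called. Without CL9 it was -0.58.

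ICAM2, on chromosome 17, showed a small difference that both of its probe sets shared. Probe set 204683_at had ratios of 1.07, 1.18 and 1.35 under the ERG-induced label and 0.934, 0.894 and 0.914 under the non-induced label. Probe set 213620_s_at had 1.08, 1.04 and 1.45 against 0.812, 0.843 and 0.959. The groups did not overlap in either, and all 3 clones were higher, but the mean of 0.41 on the log2 scale (SE 0.24, 1.33-fold, adjusted p = 0.539) stayed below the fold threshold and was not called. The clone differences of the gene, 0.30, 0.35 and 0.58, had the smallest SD of the 10 genes (0.15).

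ROBO4, on chromosome 11, was not called. Probe set 226028_at had ratios of 1.64, 0.786 and 1.92 under the ERG-induced label and 0.392, 0.402 and 1.21 under the non-induced label (1.23, SE 0.61, adjusted p = 0.473). Each clone was higher, at 2.06, 0.97 and 0.66, and it passed in the fit with clone as a block (adjusted p = 0.389). Probe set 220758_s_at had 1.39, 0.173 and 1.04 against 0.962, 1.32 and 0.894, and its mean of -0.73 (SE 0.84) rested on the induced array of CL9. In the mean of both, ROBO4 differed by 0.25 (SE 0.62, adjusted p = 0.907).

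Members that lie near each other on a chromosome had unequal values. RefSeq places MSANTD2 and ROBO3 between ESAM and ROBO4 on chromosome 11. Against the log2 differences of 1.37 in ESAM and 0.25 in ROBO4, MSANTD2 fell by 1.06 (SE 0.34, adjusted p = 0.306) and ROBO3 differed by -0.81 (SE 0.69), or by -0.12 without CL4. ICAM2 and PECAM1 flank ERN1 and TEX2 on chromosome 17, and these gave 0.03 (SE 0.33) and 0.22 (SE 0.23) beside 0.41 in ICAM2 and 2.0 in PECAM1. The difference between neighbours was not tested.

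Partners and relatives of the members were described with 15 lists holding 196 other measured genes, of which 16 were higher and 6 lower. Over all genes 3.12% were higher and 6.32% lower, the shares to set beside the count of each list. Of 16 adherens junction genes, 0 rose and 1 fell: VEZT (vezatin), which anchors the cadherin complex, was 2.22-fold lower (-1.15, SE 0.34, adjusted p = 0.286). VEZT did not pass without CL9 (-1.15) or CL46 (-0.88), or after quantile normalization (-0.96). CTNNB1, the beta-catenin that binds the tail of VE-cadherin, differed by -0.29 (SE 0.28), and PTPRB, the endothelial phosphatase that binds VE-cadherin, by -0.38 (SE 0.61). With 3.12% of all genes higher, a count of 0 among 16 is near the share over all genes. CTNND1 and CDH13 of this list were not among the measured genes. The median of this list was 0.28.

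Tight junction scaffolds held 3 higher and 1 lower gene of 17. AMOT (angiomotin), a scaffold of endothelial motility, was 7.42-fold higher (2.89, SE 0.55, adjusted p = 0.192), with 1.71 in CL4, 3.73 in CL9 and 3.23 in CL46. Its relative AMOTL2 was 2.64-fold higher (1.40, SE 0.38), and cingulin, CGN, 3.15-fold (1.66, SE 0.61). PRKCI, an atypical protein kinase C of the polarity complex, was 3.69-fold lower (-1.88, SE 0.50). AMOTL2 lost its call without CL46 (1.13), CGN without CL9 (1.42) or CL46 (1.42), and PRKCI without CL9 (-1.89) or CL46 (-1.27). The list had a median of 0.03.

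Among 19 claudins other than CLDN5, CLDN23 (1.03, SE 0.36) and CLDN14 (1.09, SE 0.38) were higher, and CLDN12 (-1.19, SE 0.37) and CLDN10 (-1.68, SE 0.64) were lower. The median was 0.07. Each of these 4 calls was lost when a clone was left out: CLDN23 without CL9 (0.63) or CL46 (1.01), CLDN14 without CL9 (0.71) or CL46 (1.22), CLDN12 without CL46 (-1.19) and after quantile normalization (-0.97), and CLDN10 without CL4 (-0.86) or CL46 (-2.09). CLDN23 and CLDN10 also lost it in the fit with clone as a block (adjusted p = 0.418 and 0.408), and CLDN23 with the median over its probe sets (0.55) and without those of a median below 1 (2.15). Of 9 relatives of the JAM proteins, VSIG4, a complement receptor of macrophages, was 6.50-fold higher (2.70, SE 1.01, adjusted p = 0.354), and lost its call without CL9 (3.06) or CL46 (2.86). The other 8 were not called.

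Of 11 genes of the ICAM family and its integrin partners, 0 passed, and the smallest p belonged to ICAM3, a ligand of leukocyte integrins (0.91, SE 0.30, adjusted p = 0.316). It passed with each array centred on its median (1.02), after quantile normalization (1.13) and without CL9 (1.23). Likewise 0 of 11 SLIT and ROBO genes passed, the smallest p being that of ROBO3. In the multimerin, emilin and CLEC14 group, 1 of 8 passed: CD93, an endothelial and myeloid surface protein that binds multimerin 2, was 3.09-fold higher (1.63, SE 0.51, adjusted p = 0.304), with 2.03 in CL4, 1.59 in CL9 and 1.26 in CL46. Its call was lost without CL4 (1.43) or CL46 (1.81). CLEC14A, the other listed partner of multimerin 2, differed by -0.93 (SE 0.27, adjusted p = 0.285). Of 9 signalling partners of PECAM1, 0 passed, and the kinase FYN gave -0.77 (SE 0.24, adjusted p = 0.304). Among 7 sialomucins and selectins, SELP (P-selectin) was 13.5-fold higher (3.76, SE 0.74) and EMCN's relative CD34 differed by 0.42 (SE 0.87).

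**Figure D4:**
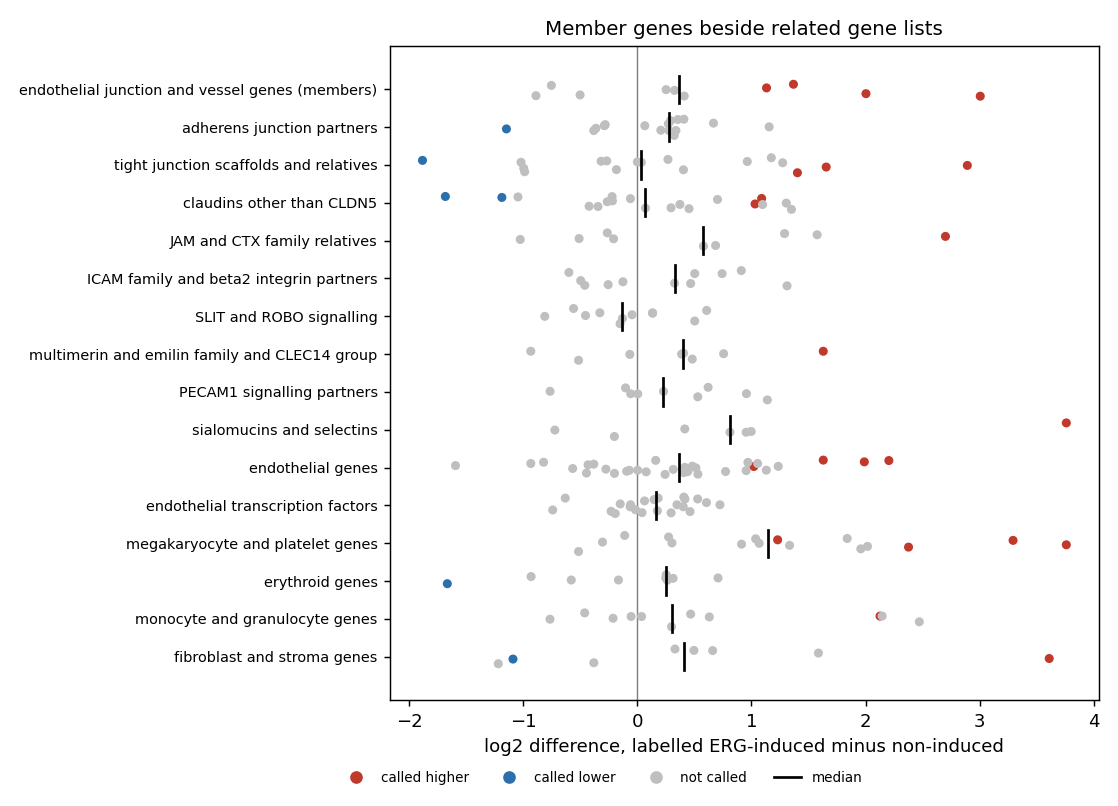
Log2 difference (ERG-induced minus non-induced label) of the 10 members in the top row and of the measured genes of 15 related lists below it, 1 point per gene with vertical jitter; red is called higher, blue called lower, grey not called, and the black bar is the median. The members' median is 0.37, that of the endothelial genes 0.36 and that of the megakaryocyte and platelet genes 1.15.

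Of 32 further endothelial genes, 4 rose and 0 fell. Without CL46, 1 rose, and without CL9, 2 fell. FLT4, the VEGF receptor of lymphatic vessels that the study names from these arrays, was 4.61-fold higher (2.20, SE 0.40, adjusted p = 0.192). The others were ECSCR, an endothelial surface protein (1.99, SE 0.74), CD93, and PROCR, the receptor of protein C (1.02, SE 0.28). For FLT4, SELP and TYROBP the study also reports a rise by RT-PCR, plotted for CL9. ECSCR lost its call without CL9 (2.16), without CL46 (1.17) and in the fit with clone as a block (adjusted p = 0.386), and PROCR without CL9 (0.82) or CL46 (0.97). Of the 13 genes set as endothelial markers, 1 was higher (ECSCR) and 0 were lower, with a median of 0.31. Among the 12 not called, VWF (von Willebrand factor) differed by 0.24 (SE 0.39), the growth factor receptor KDR by -0.57 (SE 0.71), TEK by 0.31 (SE 0.43), TIE1 by 1.05 (SE 0.49, adjusted p = 0.443), NOS3 by 0.44 (SE 0.24) and EGFL7 by -0.07 (SE 0.23). The list of 32 had a median of 0.36, close to that of the members. Its mean log2 ratio ran from -0.19 to 0.36 under the ERG-induced label and from -0.64 to -0.06 under the non-induced label, and these ranges overlapped. None of 22 endothelial transcription factors passed (median 0.16): ELF1 gave -0.74 (SE 0.23, adjusted p = 0.301), and FLI1, the closest relative of ERG, -0.06 (SE 0.23).

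Of 16 measured megakaryocyte and platelet genes, several of which share the platelet surface with members, 4 rose and 0 fell, 3 were below 0 without a call, and the median was 1.15. Without CL4 7 rose, without CL46 3, and in the fit with clone as a block 6. F13A1, a clotting factor of platelets, was 9.80-fold higher (3.29, SE 0.54, adjusted p = 0.192). The others were SELP (13.5-fold), the von Willebrand factor receptor subunit GP1BA (5.19-fold) and the integrin ITGB3 (2.34-fold). GP1BA, SELP, ITGB3 and ITGA2B are named by the study from these arrays. ITGA2B, the integrin partner of ITGB3, had 3 of 4 probe sets called higher and 0 lower. As a gene, ITGA2B was not called (1.04, SE 0.49, adjusted p = 0.447). It differed by -0.16 in CL4, 1.29 in CL9 and 1.99 in CL46. ITGB3, with 2 of 7 probe sets called higher and 0 lower, lost its call without CL9 (1.12) or CL46 (1.33). The call was also lost with the median over its probe sets (1.11). The mean log2 ratio of the list was 0.62, -0.41 and 1.00 under the ERG-induced label of CL4, CL9 and CL46, against -0.58, -1.20 and -0.85 under the non-induced label, so that the groups did not overlap. The same mean over the 10 members was 0.36, -0.20 and 0.40, against -0.31, -0.78 and -0.26. In both, CL9 was the lowest clone of each group. Fewer cells of a type and less RNA per cell cannot be told apart in such bulk samples, and the part of the platelet genes in the members' values was not tested.

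Of 9 erythroid genes, TFRC, the transferrin receptor, was 3.17-fold lower (-1.67, SE 0.32, adjusted p = 0.192). The other 8 were not called, and the median of the list lay above 0, at 0.25. Of 11 monocyte and granulocyte genes, CSF3R, the receptor of G-CSF, was 4.37-fold higher (2.13, SE 0.34). The other 10 were not called, and the median was 0.30. Of 8 fibroblast and stroma genes, the protease FAP was 12.2-fold higher (3.61, SE 0.44, adjusted p = 0.140) and the collagen COL1A1 was 2.13-fold lower (-1.09, SE 0.44). The other 6 were not called, and the median was 0.41. The COL1A1 call was lost without CL4 (-0.85) or CL9 (-1.11) and with the arrays median-centred (-0.99) or quantile-normalized (-0.95). The median over its probe sets (-1.51) was not called either. The mean log2 ratio of these lists ran from -0.10 to 0.57 under the ERG-induced label and from -0.46 to -0.15 under the non-induced label for the monocyte and granulocyte genes, and from -0.43 to 0.22 and from -0.67 to -0.42 under the same labels for the fibroblast genes. The first pair of ranges did not overlap and the second did, and the part of these genes in the members' values was not tested.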

How the data were processed

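The authors hybridized total RNA of 6 cultures to Affymetrix U133 Plus 2.0 arrays and processed them with GeneSpring; what they deposited are ratios on a linear scale, relative to the median of a probe set across the 6 arrays. That median was 1 (tolerance 1e-05) in 50737 probe sets and below 1 in 3938, including 1 of the members, EMCN 227874_at. Background correction and array scaling were not given in the sources used here, and signal over background is unknown. The number of arrays limits the precision.

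From these values, log2 ratios were taken with no floor. After 62 control probe sets were left out, 54613 were tested, 41091 of them with 1 gene symbol, of which 41037 were matched by gene ID to RefSeq (GRCh38.p14, names only). The log2 values of a gene's probe sets were averaged. R 4.3.3 with limma 3.58.1 (lmFit, eBayes, two-sided) was used for the comparison, and p-values were adjusted after Benjamini-Hochberg over every gene, or every probe set, tested. The thresholds and the comparison of triplicates follow the study. The fit was tested on simulated data. Samples were grouped by their labels; 0 value columns were left without a sample.

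The clone pairs the arrays, since both cultures of a number are the same clone; deviations from the group means correlated between the arrays of a clone at 0.04, 0.05 and 0.03 in CL4, CL9 and CL46. Alternatives were the clone as a block, 2 array scalings, no moderation, other thresholds, a floor of 0.1, the removal of probe sets with a low median, the median over probe sets, and leaving out each clone. Members and lists were chosen with earlier results of these data known. Named are all members, up to 4 called genes of each list or the 1 with the smallest p, the 3 genes closest to PECAM1 and CDH5, and ERG; CTNNB1, PTPRB, CLEC14A, CD34, ITGA2B, VWF, KDR, TEK, TIE1, NOS3, EGFL7, FLI1, MSANTD2, ERN1 and TEX2 were added after their values were seen, as partners, defining markers, neighbours or genes the study names. Promoter sequences come from RefSeq (GRCh38.p14).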

Additional observations from a re-analysis of the deposited data

How the results depend on the processing

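The 10 member genes kept their direction and the same calls with each array centred on its median, after quantile normalization, at a fold of 1.5, with a floor of 0.1, without probe sets of a median below 1 and with the median over probe sets, although EMCN moved to 1.51 without its probe set of a median below 1. The all-gene median, -0.03 as deposited, was 0.08 after centring and 0.11 after quantile normalization. With the clone as a block (replicate block) 3 of 10 members and 8 of 23 member probe sets were higher, and without moderation 3 and 7. Without moderation ESAM, JAM3 212813_at, CGN, CLDN10, VSIG4, ECSCR and COL1A1 were no longer called. Under an adjusted p of 0.05, 0 members, 0 member probe sets and 0 genes of the lists passed in either direction in limma, the one tool run, with an unadjusted p under 0.05 in 4 members and 10 member probe sets. Leaving out a clone gave 3 higher member genes each time and 6 to 8 higher member probe sets. It gave 9 to 23 higher and 2 to 5 lower list genes, against 16 and 6, and the 9 and the 2 were those without CL46. Over all genes it gave 678 to 720 higher and 1005 to 1305 lower, against 617 and 1250. The list genes lower numbered 3 after quantile normalization and 10 at a fold of 1.5. Among the alternatives run, signs turned when a clone was left out, in genes and probe sets with no call: JAM2 ranged from -1.44 to 0.51, ROBO4 from -0.27 to 0.87 and EMCN from -0.084 to 0.59. Of the probe sets, JAM2 219213_at ranged from -1.53 to 0.069, JAM2 229127_at from -1.34 to 0.95, EMCN 222885_at from -0.34 to 0.95, ROBO4 220758_s_at from -1.36 to 0.37, and PECAM1 1559921_at from -0.068 to 0.14. Signal over background is unknown here, and 3 arrays a group limit the precision. The causes were not tested.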
